A study of Arabidopsis thaliana with 12 samples.

Results

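The YODA cascade of mitogen-activated protein kinases (MAPKs) and its inhibitor *BIN2* were followed at the transcript level in Arabidopsis thaliana seedlings. They comprise 9 genes, listed by locus identifier: *YDA* (AT1G63700), *MKK4* (AT1G51660), *MKK5* (AT3G21220), *MKK7* (AT1G18350), *MKK9* (AT1G73500), *MPK3* (AT3G45640), *MPK6* (AT2G43790), *BSL1* (AT4G03080) and *BIN2* (AT4G18710). All 9 were among the 23071 genes counted and passed the filter on low counts that left 22636 genes for testing. RNA came from whole seedlings 2 days after germination, with 50 pooled seedlings per library and 3 libraries per line. The recorded growth conditions were the same for every library. Nights lasted 8 h and days 16 h, with a light level of 70 µmol per square metre and second. The temperature was 21 °C and the sucrose level 1%. Every line, the control included, is in the mute-3 background and carries a *MUTE* transgene under the *MUTE* promoter. MUTEv5#2 (line 2) and MUTEv5#5 (line 5) make the R10W protein, MUTEPPP#3 (line 3) makes the H3P, E7P and R11P protein, and MUTE (line 1) makes the wild-type protein. The submitters describe moderately clustered stomata in MUTEv5#2 and arrested lineages in MUTEv5#5. Each group is 1 transgenic line, so that an allele cannot be told apart from its insertion site, and the MUTEPPP and control alleles are each seen in 1 line only. Each comparison with MUTE asks whether the transcripts of the cascade differ when the MUTE protein is altered.

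Library totals ran from 117868477 to 152600239 counts, at which 1 count is at most 0.00915 CPM (counts scaled to a common library size, here TMM-normalised totals). *MUTE* itself stood at 12.9, 10.8 and 8.26 CPM in MUTEv5#2, at 24.5, 14.4 and 16.8 CPM in MUTEv5#5 and at 6.93, 5.42 and 5.32 CPM in MUTEPPP#3, against 6.10, 5.00 and 4.85 CPM in MUTE. These counts do not tell the transgene from the mute-3 locus. Of 10 markers of mature guard cells, 9 fell in MUTEv5#2, 8 fell in MUTEv5#5, and 1 rose and 1 fell in MUTEPPP#3, each relative to MUTE. Of all genes tested, 5.04%, 1.04% and 24.6% passed in these 3 lines, in either direction. The summed level of the 10 markers was 558.8 to 633 CPM in MUTEv5#2, 405.8 to 579.3 CPM in MUTEv5#5 and 1084 to 1235 CPM in MUTEPPP#3, against 1281 to 1482 CPM in MUTE. The 9 root markers summed to 134.7 to 160.2 CPM over all 12 libraries, so both shoot and root cells contributed RNA. In such bulk samples, fewer cells of a type and less RNA per cell cannot be told apart.

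In the stomatal lineage the cascade relays a signal from ERECTA-family receptors, which read secreted peptides, to the transcription factors that start the lineage. The kinase kinase kinase YDA activates MKK4 and MKK5, which activate MPK3 and MPK6. These phosphorylate the bHLH factor SPCH, which is then degraded, and its partner SCRM. MKK7 and MKK9 are further MAPK kinases that act on MPK3 and MPK6 and have been placed later in the lineage. BIN2 is a GSK3-like kinase, held in check by brassinosteroid signalling, that phosphorylates YDA and the MAPK kinases and so restrains the cascade. BSL1 is a phosphatase of the BSU1 family that counters BIN2 and joins the cortical polarity complex of the dividing stem cell. Because the cascade is switched by phosphorylation, its transcript levels do not report its activity.

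The sequences just upstream of 3 genes are shown because *MKK4* and *MKK5* varied together and *BIN2* was the single member to change in MUTEPPP#3. MUTE is a bHLH factor, and E-boxes, the bHLH core site with the letters CANNTG, are in capitals. Each window is the 300 bases before the annotated transcription start, read on the gene's strand from the RefSeq genome TAIR10.1, and both strands were searched.
MKK4, chr1:19154023-19154322, plus strand: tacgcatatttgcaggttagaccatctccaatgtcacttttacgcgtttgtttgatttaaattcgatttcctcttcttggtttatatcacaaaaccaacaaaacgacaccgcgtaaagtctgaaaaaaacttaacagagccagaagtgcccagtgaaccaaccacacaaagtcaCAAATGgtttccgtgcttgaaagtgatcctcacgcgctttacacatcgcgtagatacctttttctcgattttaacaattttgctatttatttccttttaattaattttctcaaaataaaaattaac
MKK5, chr3:7445304-7445603, plus strand: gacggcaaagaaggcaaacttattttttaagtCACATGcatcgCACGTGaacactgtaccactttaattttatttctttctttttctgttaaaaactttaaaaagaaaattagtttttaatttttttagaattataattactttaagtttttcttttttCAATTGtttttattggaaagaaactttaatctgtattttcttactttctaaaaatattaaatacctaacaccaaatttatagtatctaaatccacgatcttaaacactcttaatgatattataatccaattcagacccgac
BIN2, chr4:10295838-10296137, plus strand: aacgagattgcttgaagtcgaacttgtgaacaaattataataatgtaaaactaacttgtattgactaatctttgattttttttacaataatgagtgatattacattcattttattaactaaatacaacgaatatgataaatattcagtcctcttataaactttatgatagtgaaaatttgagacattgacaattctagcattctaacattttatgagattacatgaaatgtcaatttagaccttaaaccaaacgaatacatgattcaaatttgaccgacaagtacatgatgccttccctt
The *MKK4* window held 1 E-box, 126 bases before the start. That of *MKK5* held 3, at 268, 257 and 141 bases, and the one at 257 bases is also a G-box (letters CACGTG). The *BIN2* window held 0 E-boxes and 4 W-box cores (letters TTGAC, not capitalised), the core site of WRKY factors, at 240, 115, 71 and 30 bases. Of all 27443 windows of this length, 61.9% held an E-box, 7.09% a G-box and 50.4% a W-box core. Among the other members, *MPK3* held 1 E-box, *MPK6* 3 W-box cores and *BSL1* 1 W-box core. A match is a description of the letters and not evidence of binding.

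The paralogues share coding sequence. *MKK4* and *MKK5* were 80.8% identical over 1047 aligned coding bases, with a longest common run of 40 bases that starts at coding base 830 of *MKK4* and is shown because reads within it cannot be assigned to either gene.
Shared run of MKK4 and MKK5: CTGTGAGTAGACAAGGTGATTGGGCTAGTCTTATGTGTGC
*MKK7* and *MKK9* were 79.2% identical with a longest run of 24 bases, *BIN2* and its nearest paralogue *BIL1* 77.7% with 20 bases, and *MPK3* and *MPK6* 69.4% with 14 bases. *MKK4* overlaps AT1G51670 and *BIN2* overlaps AT4G18720 on the same strand, and *MKK5*, *MKK7*, *MPK3*, *MPK6* and *BSL1* overlap a gene on the other strand. The strand setting of the counting is not given in the sources used here, so these levels can include reads of the neighbour.

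Transcript levels of the 9 genes differed widely. Per kilobase of annotated exon, *BIN2* was highest at 70.2 ± 10.9 CPM per kb (SD over 12 libraries) and above *MPK3* in 12 of 12 libraries. By the length of its longest transcript, 1955 bases in place of 2665 bases of exon, the *BIN2* value is 95.8 CPM per kb. *MPK3* (36.0 ± 11.8) and *MPK6* (32.9 ± 1.76) followed, and *MPK3* was above *MPK6* in 6 of 12 libraries, so that their order was not fixed. *BSL1* (19.1 ± 3.21) was above *YDA* (13.2 ± 1.28) in 12 of 12, and *YDA* above *MKK5* (9.96 ± 1.69) in 11. *MKK5* was above *MKK4* (7.53 ± 0.909) in 12 of 12 and *MKK4* above *MKK9* (6.24 ± 2.71) in 9. The terminal kinases were thus more abundant per length than the MAPK kinases above them. *MKK7* (chromosome 1, 6315636 to 6316738, plus strand) was near the limit of detection at 0.0634 ± 0.0426 CPM per kb, and its counts were 11, 5 and 20 in MUTEv5#2, 4, 15 and 7 in MUTEv5#5, 13, 13 and 2 in MUTEPPP#3 and 2, 5 and 16 in MUTE. No fold change is given for it.

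**Figure D1:**
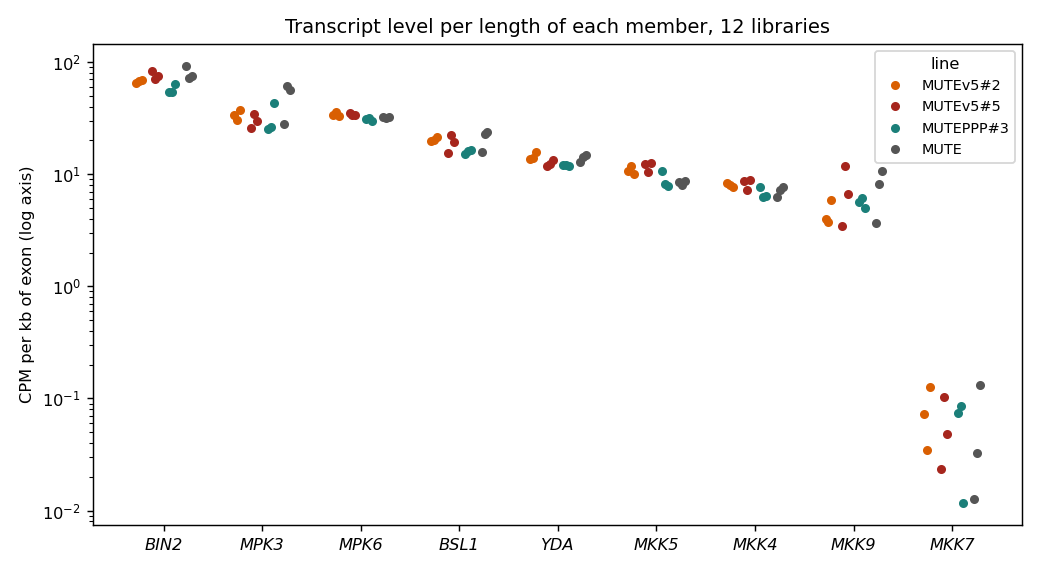
Transcript level per kilobase of exon (CPM per kb, log axis) of the 9 genes, ordered by their mean, with 1 point per library coloured by line. *BIN2* lies highest in every library, *MPK3* and *MPK6* overlap, and *MKK7* lies far under *MKK9*.

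The members also differed in how steady they were between replicates. *MPK6* had the smallest spread of the 9, with a within-line SD of 0.0416 on the log2 scale, which is at percentile 0.225 of the genes tested. Its 12 libraries ran from 51.4 to 61.5 CPM. *YDA* was next, at 0.0858 (percentile 8.01). *BIN2* (0.134), *MKK4* (0.143) and *MKK5* (0.155) were under the median over all genes of 0.198, and *BSL1* (0.217) was just above it. *MPK3* (0.397, percentile 79.8) and *MKK9* (0.622, percentile 91.6) were among the more variable genes. A change of a given size was therefore easier to detect in *MPK6* or *YDA* than in *MPK3* or *MKK9*.

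Against MUTE, *BIN2* was the only member to pass the test, and only in MUTEPPP#3, where it fell. In MUTEv5#2, 0 of 9 members passed, against 5.04% of all genes tested, and in MUTEv5#5, 0 of 9 passed, against 1.04%. In MUTEPPP#3, 1 of 9 passed, against 24.6% of all genes in either direction and 13.9% of all genes that fell. These calls are those of edgeR's quasi-likelihood test with Benjamini-Hochberg adjustment over 22636 genes, at a threshold of 0.05. At an unadjusted p under 0.05, 2 members were found in MUTEv5#2, 2 in MUTEv5#5 and 3 in MUTEPPP#3, against 22.8%, 16.2% and 38.4% of all genes. DESeq2 called 0, 1 (*MKK5*) and 1 (*BIN2*) members in MUTEv5#2, MUTEv5#5 and MUTEPPP#3, against 11.5%, 5.01% and 30.0% of the 23071 genes in its fit. By limma-voom 0, 0 and 1 (*BIN2*) were called, against 4.91%, 1.10% and 23.7% of all genes. Leaving out *MKK7*, 7 of 8 members lay within 1.5-fold of MUTE in each of the 3 lines, and the largest change in either direction was 1.65-fold in MUTEv5#2 (*MKK9*), 1.61-fold in MUTEv5#5 (*MPK3*) and 1.52-fold in MUTEPPP#3 (*MPK3*).

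**Figure D2:**
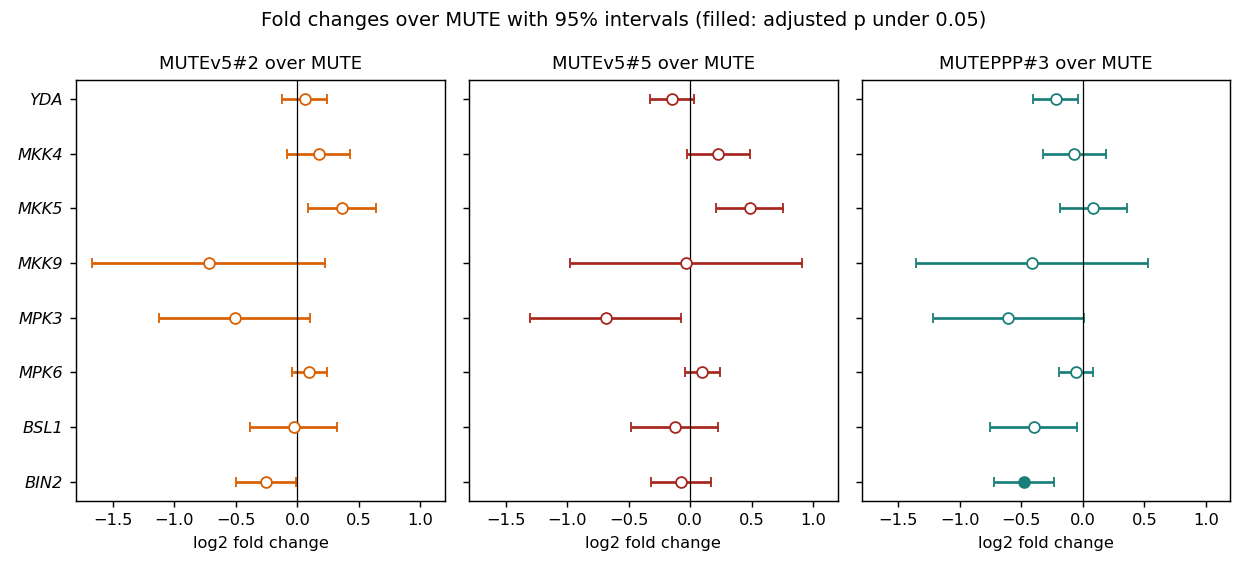
Log2 fold changes over MUTE with 95% intervals for the 8 members other than *MKK7*, in MUTEv5#2, MUTEv5#5 and MUTEPPP#3. Filled points have an adjusted p under 0.05, which holds for *BIN2* in MUTEPPP#3 alone, at -0.48.

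*YDA* (chromosome 1, 23624627 to 23630073, minus strand, 2 annotated transcripts) is the kinase at the head of the cascade. It had 51.4, 52.9 and 59.4 CPM in MUTEv5#2, 44.9, 46.4 and 50.6 CPM in MUTEv5#5 and 45.2, 45.5 and 44.1 CPM in MUTEPPP#3, against 48.7, 53.1 and 55.4 CPM in MUTE. The libraries of MUTEPPP#3 were all under those of MUTE, while those of both MUTEv5 lines overlapped them. The log2 fold change over MUTE was 0.06 (95% interval -0.12 to 0.24, adjusted p = 0.721) in MUTEv5#2, -0.15 (-0.33 to 0.03, adjusted p = 0.408) in MUTEv5#5 and -0.22 (-0.40 to -0.04, adjusted p = 0.0721) in MUTEPPP#3. None passed the threshold, and the intervals exclude a change of 1.5-fold in any line. The lines that differed most were MUTEPPP#3 and MUTEv5#2 (-0.28, interval -0.46 to -0.10, adjusted p = 0.0929), whose libraries did not overlap, and DESeq2 called this difference (-0.27, adjusted p = 0.0285).

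*MKK5* (chromosome 3, 7445604 to 7448498, plus strand) is one of the MAPK kinases that YDA activates. It had 25.5, 28.5 and 23.9 CPM in MUTEv5#2, 29.9, 24.9 and 30.0 CPM in MUTEv5#5 and 25.5, 19.8 and 19.0 CPM in MUTEPPP#3, against 20.4, 19.2 and 21.1 CPM in MUTE. Every library of either MUTEv5 line was above every MUTE library, and 2 of the 3 MUTEPPP#3 libraries lay within or under the MUTE range. Over MUTE, the log2 fold change was 0.36 (interval 0.09 to 0.64, adjusted p = 0.112) in MUTEv5#2, 0.48 (0.21 to 0.76, adjusted p = 0.0944) in MUTEv5#5 and 0.09 (adjusted p = 0.649) in MUTEPPP#3. The overall test of the 4 lines passed for *MKK5* (adjusted p = 0.0440), as it did for *BIN2* (adjusted p = 0.0389), so 2 of 9 members passed it, against 18.8% of all genes. This count was 3 with DESeq2 and with an index of clock phase as a covariate, 1 with library totals only, 0 with the share of organelle counts as a covariate, and 0 or 1 in each of the 12 fits without a single library. The pairwise differences did not pass, and DESeq2 called that of MUTEv5#5 (0.48, adjusted p = 0.0175). Groups without overlap were found for 3, 2 and 3 of 9 members in MUTEv5#2, MUTEv5#5 and MUTEPPP#3 against MUTE, and for 30.3%, 20.6% and 40.7% of all genes.

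*MKK4*, the close paralogue of *MKK5* (chromosome 1, 19154323 to 19156338, plus strand), had 16.7, 16.1 and 15.5 CPM in MUTEv5#2, 17.6, 14.5 and 17.99 CPM in MUTEv5#5 and 15.3, 12.7 and 12.8 CPM in MUTEPPP#3, against 12.6, 14.7 and 15.6 CPM in MUTE. All 3 variant lines overlapped MUTE. Its log2 fold changes, 0.18, 0.23 and -0.07, had the same order as those of *MKK5* at a smaller size, with adjusted p of 0.400, 0.366 and 0.698.

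The levels of the paired kinases were compared within each library. The ratio of *MKK5* to *MKK4* per kilobase was 1.35 ± 0.112 in MUTEv5#2, 1.42 ± 0.0215 in MUTEv5#5 and 1.32 ± 0.0738 in MUTEPPP#3, against 1.195 ± 0.141 in MUTE (SD, n = 3 each). *MKK9* (chromosome 1, 27639091 to 27640643, minus strand) had 6.18, 5.84 and 9.14 CPM in MUTEv5#2, 5.40, 18.3 and 10.4 CPM in MUTEv5#5 and 8.81, 9.58 and 7.80 CPM in MUTEPPP#3, against 5.73, 12.7 and 16.4 CPM in MUTE. The replicates of MUTE and of MUTEv5#5 differed more from each other than the line means did, and the log2 fold changes of -0.72, -0.03 and -0.41 did not pass.

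Of the terminal kinases, *MPK6* (chromosome 2, 18138246 to 18140988, plus strand) had 57.6, 61.5 and 57.1 CPM in MUTEv5#2, 60.8, 57.3 and 58.3 CPM in MUTEv5#5 and 53.3, 53.9 and 51.4 CPM in MUTEPPP#3, against 55.3, 54.0 and 55.4 CPM in MUTE. Libraries of both MUTEv5 lines were above those of MUTE and those of MUTEPPP#3 below them, without overlap. The differences were small. The log2 fold changes were 0.10 (interval -0.04 to 0.24), 0.10 (-0.04 to 0.24) and -0.05 (-0.19 to 0.09), and none passed the threshold. With library totals as the only scaling, the value for MUTEPPP#3 was 0.11.

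*MPK3* (chromosome 3, 16756571 to 16758874, plus strand) is also known as a kinase of immune signalling. It had 63.2, 56.9 and 69.0 CPM in MUTEv5#2, 48.1, 63.9 and 55.5 CPM in MUTEv5#5 and 47.4, 49.1 and 80.2 CPM in MUTEPPP#3, against 51.7, 114 and 104 CPM in MUTE. MUTE replicate 1 lay among the variant libraries, and the other MUTE libraries lay above all of them. The log2 fold changes of -0.51 (adjusted p = 0.305) in MUTEv5#2, -0.69 (adjusted p = 0.254) in MUTEv5#5 and -0.61 (adjusted p = 0.133) in MUTEPPP#3 did not pass, and without MUTE replicate 1 that of MUTEPPP#3 was -0.86 (adjusted p = 0.0216). Over the 22 alternatives the *MPK3* value in MUTEPPP#3 ran from -1.49 to -0.38, and it was not called in 20 of them. The ratio of *MPK3* to *MPK6* per kilobase was 0.994 ± 0.131 in MUTEv5#2, 0.879 ± 0.149 in MUTEv5#5 and 1.03 ± 0.352 in MUTEPPP#3, against 1.51 ± 0.574 in MUTE (SD, n = 3 each). Of 8 defence genes acting downstream of MPK3 and MPK6, 0 passed in either MUTEv5 line, against 5.04% of all genes in MUTEv5#2 and 1.04% in MUTEv5#5. In MUTEPPP#3, 1 of the 8 fell, against 13.9% of all genes that fell and 24.6% that passed in either direction. The 8 defence genes summed to 75.62 to 218 CPM in MUTEv5#2, 88.99 to 237.3 CPM in MUTEv5#5 and 91.51 to 124.2 CPM in MUTEPPP#3, against 110.5 to 477.7 CPM in MUTE. The member that fell was *WRKY40*, a WRKY factor, with 5.45, 4.49 and 4.33 CPM in MUTEPPP#3 and 6.43, 20.7 and 79.7 CPM in MUTE. Its log2 fold change was -2.90 (adjusted p = 0.0481, called in 10 of 22 alternatives), and -1.49 (adjusted p = 0.232) without MUTE replicate 3. The part of stress signalling in the *MPK3* levels was not tested.

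**Figure D3:**
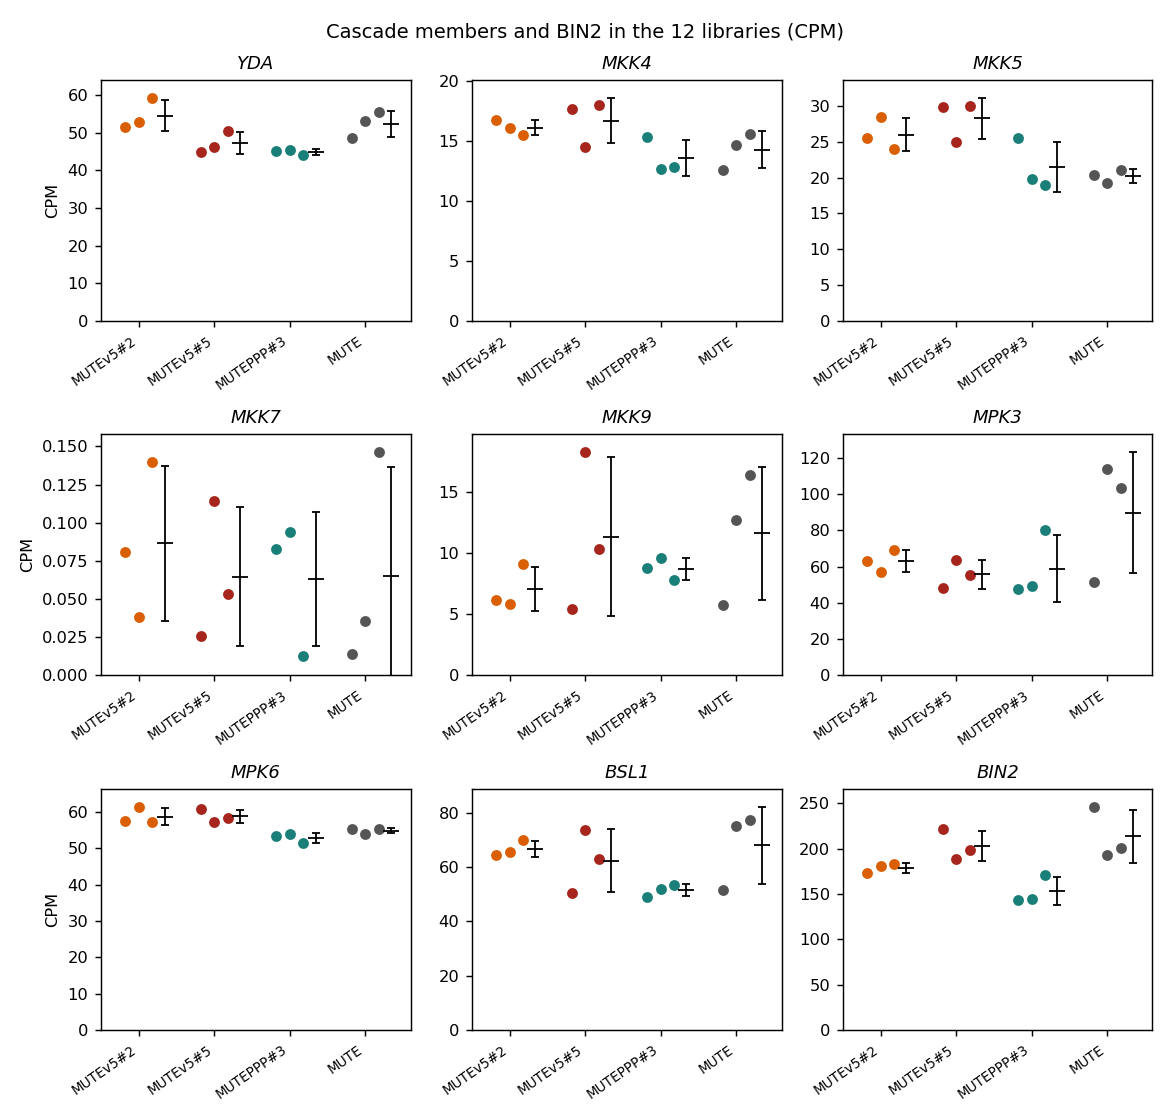
CPM of the 9 genes in each library, from left to right MUTEv5#2, MUTEv5#5, MUTEPPP#3 and MUTE, with the 3 replicates as points and the mean ± SD beside them. *BIN2* of MUTEPPP#3, at 144 to 171 CPM, lies under MUTE, at 194 to 247 CPM, *MPK6* is nearly level, and *MPK3* of MUTE spreads from 51.7 to 114 CPM.

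The phosphatase gene *BSL1* (chromosome 4, 1359655 to 1365498, minus strand) had 64.3, 65.6 and 69.8 CPM in MUTEv5#2, 50.5, 73.6 and 62.9 CPM in MUTEv5#5 and 49.1, 52.0 and 53.3 CPM in MUTEPPP#3, against 51.5, 75.0 and 77.3 CPM in MUTE. As with *MPK3*, MUTE replicate 1 was the low library of its line and lay within the MUTEPPP#3 range. For both genes, replicate 1 was also the lowest library of MUTEv5#5. The log2 fold change over MUTE was -0.03 in MUTEv5#2, -0.12 in MUTEv5#5 and -0.40 in MUTEPPP#3 (adjusted p = 0.0904), and without MUTE replicate 1 the last was -0.54 (adjusted p = 0.0212). With the replicate number as a block it was -0.38 (adjusted p = 0.0440). Over the 22 alternatives the value in MUTEPPP#3 ran from -0.85 to -0.23, and it was not called in 19 of them.

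*BIN2* (chromosome 4, 10296138 to 10301228, plus strand, 2 annotated transcripts) had 173, 180 and 184 CPM in MUTEv5#2, 221, 189 and 199 CPM in MUTEv5#5 and 144, 145 and 171 CPM in MUTEPPP#3, against 247, 194 and 200 CPM in MUTE. All 3 MUTEPPP#3 libraries were under all 9 others. It averaged 153 ± 15.8 CPM in MUTEPPP#3, against 213 ± 28.8 CPM in MUTE (SD, n = 3 each), or 0.718-fold. On the log2 scale this was -0.48 with an SE of 0.111 and a 95% interval of -0.72 to -0.23 (adjusted p = 0.0119). In MUTEv5#2 it was -0.25 (interval -0.50 to -0.01, adjusted p = 0.203), with no overlap with MUTE, and in MUTEv5#5 -0.07 (-0.32 to 0.17, adjusted p = 0.803). The fall in MUTEPPP#3 passed in 18 of 22 alternatives. It was not called without MUTEPPP#3 replicate 2 (-0.44, adjusted p = 0.0525), when the fit held the 2 compared lines alone (-0.47, adjusted p = 0.0602), with library totals as the only scaling (-0.31, adjusted p = 0.0918) or with an index of clock phase as a covariate (-0.39, adjusted p = 0.185). Library totals alone moved the median of all genes by 0.17 in this comparison, on the log2 scale.

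Between the variant lines, MUTEPPP#3 was compared with each MUTEv5 line and MUTEv5#5 with MUTEv5#2. *BIN2* fell in MUTEPPP#3 relative to MUTEv5#5, at -0.41 on the log2 scale with an SE of 0.111 (adjusted p = 0.0343). It was 1 of 9 members to pass, against 15.7% of all genes in either direction and 9.38% of all genes that fell. This call was lost in 11 of 22 alternatives, among them leaving out MUTE replicate 3, MUTEPPP#3 replicate 1 or 2, MUTEv5#2 replicate 2 or any of the MUTEv5#5 replicates, where it ran from -0.43 to -0.34. Relative to MUTEv5#2 it was -0.22 (adjusted p = 0.274), and 0 of 9 members passed, against 2.47% of all genes. In MUTEPPP#3 relative to MUTEv5#5, *MKK5* had -0.40 (adjusted p = 0.0517), and 1 MUTEPPP#3 library overlapped the MUTEv5#5 range. That difference was called by DESeq2 (-0.39, adjusted p = 0.0277), by limma-voom (-0.41, adjusted p = 0.0485) and without MUTEPPP#3 replicate 1 (-0.54, adjusted p = 0.00962). In the same comparison *MKK4* (-0.30, adjusted p = 0.106) and *MPK6* (-0.15, adjusted p = 0.122) had the same sign, and *BSL1* had -0.37 (adjusted p = 0.212) relative to MUTEv5#2. Between MUTEv5#5 and MUTEv5#2, which make the same protein, 0 of 9 members passed with edgeR, DESeq2 and limma-voom, against 0.0663%, 1.29% and 0.0751% of all genes. At an unadjusted p under 0.05, 1 member was found there (*YDA*, -0.21), 4 in MUTEPPP#3 relative to MUTEv5#2 and 4 relative to MUTEv5#5, against 10.8%, 21.2% and 31.9% of all genes. Groups without overlap were found for 5 members in MUTEPPP#3 relative to MUTEv5#2, 2 in MUTEPPP#3 relative to MUTEv5#5 and 2 in MUTEv5#5 relative to MUTEv5#2, and for 27.2%, 33.3% and 18.2% of all genes. The comparisons share libraries, so they are not independent of each other.

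Clock genes peak at set times of the day, and the MUTEPPP#3 libraries stood apart in them. A clock index was formed as the mean log2 CPM of 5 evening genes minus that of 5 morning genes. It was -1.55, -1.29 and -0.33 in MUTEv5#2, -3.02, -0.40 and -2.18 in MUTEv5#5 and 0.05, 2.72 and 3.90 in MUTEPPP#3, against -3.41, -0.77 and -1.27 in MUTE. In MUTEPPP#3 relative to MUTE, 3 of 5 evening genes rose and 2 of 5 morning genes fell, against 24.6% of all genes in either direction. In the MUTEv5 lines 0 of either set passed, against 5.04% of all genes in MUTEv5#2 and 1.04% in MUTEv5#5. The evening genes summed to 153.8 to 576.9 CPM in MUTEPPP#3 and 57.5 to 172.6 CPM in MUTE, and the morning genes to 144 to 164.2 CPM in MUTEPPP#3 and 325.1 to 919.1 CPM in MUTE. Since every MUTEPPP#3 library had a higher index than every other library, line and clock phase cannot be told apart for it. *BIN2* was highest, at 247 CPM, in the MUTE library with the lowest index. Within MUTEPPP#3, the library with the highest index had the highest *BIN2* level. With the index as a covariate the log2 fold changes of *BIN2*, *BSL1* and *MPK3* in MUTEPPP#3 were -0.39 (adjusted p = 0.185), -0.85 (adjusted p = 0.0151) and -1.49 (adjusted p = 0.00883), *MPK3* was called also in MUTEv5#2 (-0.62, adjusted p = 0.0451), and *MKK5* was called in MUTEv5#2 (0.43, adjusted p = 0.0181) and MUTEv5#5 (0.47, adjusted p = 0.0247).

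**Figure D4:**
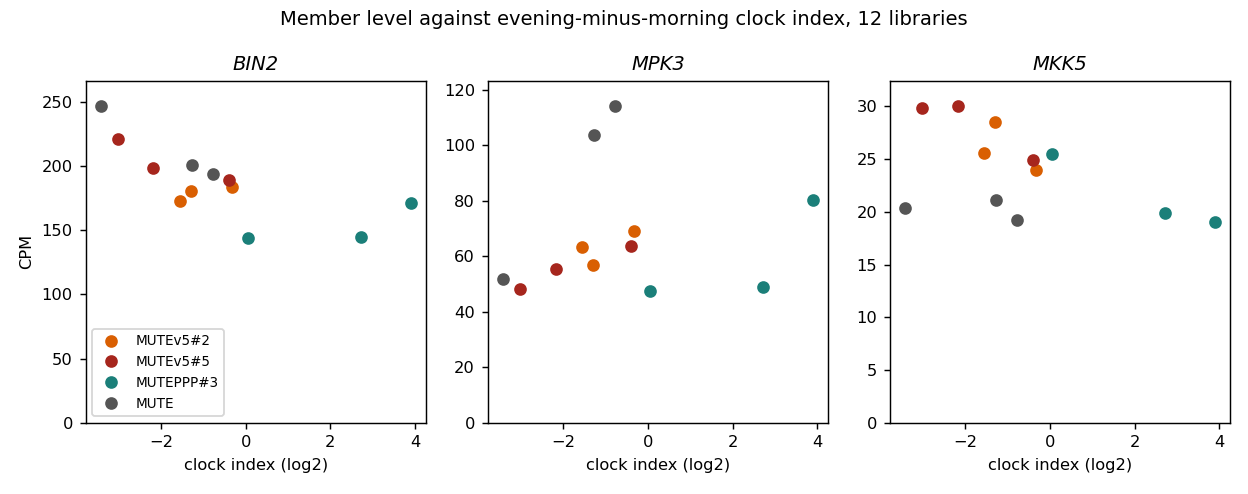
CPM of *BIN2*, *MPK3* and *MKK5* against the clock index (mean log2 CPM of evening genes minus that of morning genes), 1 point per library, coloured by line. The MUTEPPP#3 libraries, at 0.05 to 3.90, lie to the right of all others, at -3.41 to -0.33.

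The members were compared with each other over the 12 libraries, by the correlation of log2 CPM in 28 pairs of the 8 genes other than *MKK7*. *MKK4* and *MKK5* had a Pearson r of 0.846 (permutation p = 0.00076, adjusted p = 0.014) and a Spearman rho of 0.832 (permutation p = 0.0013, adjusted p = 0.017). Without the 2 libraries farthest from the median of the first-named gene, r was 0.826, and for deviations from the line means it was 0.731. *MKK5* and *MPK6* had an r of 0.824 (permutation p = 0.001, adjusted p = 0.014) and a rho of 0.818 (permutation p = 0.00182, adjusted p = 0.017), with 0.754 and 0.639 in those checks. *MPK3* and *BSL1* had an r of 0.727 (permutation p = 0.00644, adjusted p = 0.0514) and a rho of 0.867 (permutation p = 0.00057, adjusted p = 0.016), with 0.526 and 0.819. *YDA* and *BSL1* had an r of 0.737 (permutation p = 0.00832, adjusted p = 0.0514) and a rho of 0.762 (permutation p = 0.00538, adjusted p = 0.0377), with 0.747 and 0.594. *MKK4* and *MPK6* had an r of 0.717 (permutation p = 0.00917, adjusted p = 0.0514) and a rho of 0.748 (permutation p = 0.00697, adjusted p = 0.0390), with 0.764 and 0.253. *BIN2* reached an adjusted p under 0.05 with 0 of the other 7 genes by either measure. *YDA* and *MKK4*, neighbours in the pathway, had an r of 0.324 (permutation p = 0.301, adjusted p = 0.674) and a rho of 0.259 (permutation p = 0.416, adjusted p = 0.783). The permutations exchanged libraries across lines, though the libraries of a line share their genotype, so line differences alone can give small p-values. Over all genes of at least 1 CPM, deviations of same-numbered MUTE and MUTEv5#5 libraries from their line means correlated at 0.677, 0.553 and 0.487. The permutations did not keep this pairing, and taking out line means does not remove it. Its part in the pair correlations was not tested. For deviations from the line means, r was 0.946 for *MKK9* and *BSL1*, -0.749 for *MKK9* and *BIN2* and -0.711 for *BSL1* and *BIN2*. Over the 12 libraries these pairs had 0.644, -0.137 and 0.172. In both MUTE and MUTEv5#5, replicate 1 was the lowest library of its line for *MKK9* and *BSL1* and the highest for *BIN2*. In MUTEv5#2 and MUTEPPP#3, replicate 1 was the lowest for *BIN2*. *MKK4* and *MKK5* share coding sequence.

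For each member, the genes with the most similar pattern were taken as the 3 highest Pearson correlations of log2 CPM among 19177 genes of at least 1 CPM, over 12 libraries. For *BIN2* these were *XLG1* (r = 0.982), AT1G18660 (0.981) and *VEL1* (0.978). For *MKK5* they were AT2G02870 (0.976), AT1G61790 (0.971) and AT5G56747 (0.962). *BSL1* was nearest to *CSI1* (0.962), AT5G65440 (0.951) and *PERK10* (0.947), and *MKK9* to *ATL6* (0.936), *GID1C* (0.927) and *RAV1* (0.922). *MPK3* was nearest to AT1G51890 (0.930), *PAH2* (0.925) and AT5G38210 (0.924), and *MPK6* to *SIM* (0.924), *HAT9* (0.922) and *HDG2* (0.911). *YDA* had *CHB3* (0.897), AT3G23090 (0.891) and AT2G39420 (0.884), and *MKK4* had *MTO3* (0.895), *AGK2* (0.883) and *BZR1* (0.875), the brassinosteroid transcription factor that BIN2 phosphorylates.

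The relatives of the cascade kinases were compared next. Of 10 other MAPK kinase kinases, 4 other MAPK kinases and 18 other MAPKs tested, 1 passed in each MUTEv5 line against MUTE, beside 5.04% of all genes in MUTEv5#2 and 1.04% in MUTEv5#5. It was *MPK12*, a MAPK of guard cells. It had 5.41, 5.37 and 5.38 CPM in MUTEv5#2, 5.31, 4.65 and 4.09 CPM in MUTEv5#5 and 8.24, 8.55 and 8.06 CPM in MUTEPPP#3, against 10.4, 8.94 and 8.00 CPM in MUTE. All libraries of both MUTEv5 lines were under all others, as were those of the guard cell markers, whose part in this was not tested. In MUTEv5#2 its log2 fold change was -0.76 with an adjusted p of 0.0140, called in 18 of 22 alternatives. Among single libraries, the call was lost without MUTEv5#2 replicate 1 (-0.76, adjusted p = 0.0608) or 2 (-0.76, adjusted p = 0.0806). In MUTEv5#5 it was -0.96 with an adjusted p of 0.00501, called in 21 of 22. In MUTEPPP#3, *MPK12* rose relative to MUTEv5#5 (0.82, adjusted p = 0.00303, called in 22 of 22) and MUTEv5#2 (0.62, adjusted p = 0.0307, called in 15). Among single libraries, the second call was lost without any one of the 3 MUTEv5#2 libraries (0.62 each time) and without MUTEPPP#3 replicate 2 (0.60, adjusted p = 0.130) or 3 (0.64, adjusted p = 0.0813).

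In MUTEPPP#3 relative to MUTE, 2 of the 10 kinase kinase kinases fell, 0 of the 4 MAPK kinases passed, and 1 of the 18 MAPKs rose and 2 fell, against 24.6% of all genes in either direction. *MAPKKK3* and *MAPKKK5*, the nearest relatives of *YDA* and known for immune signalling, had log2 fold changes of -0.43 (adjusted p = 0.00860, called in 20 of 22 alternatives) and -0.31 (adjusted p = 0.0339, called in 13). *MPK15*, with 32.5, 28.0 and 28.3 CPM in MUTEPPP#3 and 48.2, 51.5 and 49.7 CPM in MUTE, had a log2 fold change of -0.75 (adjusted p = 9.92e-04). *MPK17*, with 108, 99.85 and 116 CPM in MUTEPPP#3 and 178, 182 and 203 CPM in MUTE, had one of -0.79 (adjusted p = 0.00278). Both were called in 22 of 22 alternatives and their groups did not overlap. *MPK7* rose by 0.67 (adjusted p = 0.0287), but with the clock index as a covariate its log2 fold change was -0.04 (adjusted p = 0.861).

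MAPKs are switched off by phosphatases, of which 8 were tested. *AP2C3*, a protein phosphatase known to dephosphorylate MAPKs in the stomatal lineage, had 0.816, 0.633 and 0.420 CPM in MUTEv5#2, 0.407, 0.420 and 0.320 CPM in MUTEv5#5 and 1.72, 1.49 and 1.35 CPM in MUTEPPP#3, against 0.767, 1.33 and 1.02 CPM in MUTE. MUTEPPP#3 was above all other libraries and MUTEv5#5 below all of MUTE. It fell in MUTEv5#5 relative to MUTE (-1.44, adjusted p = 0.0420), which was called in 10 of 22 alternatives. In MUTEPPP#3 it rose relative to MUTEv5#5 (1.99, SE 0.280, adjusted p = 0.00245, called in 22 of 22) and to MUTEv5#2 (1.29, called in 10 of 22). Relative to MUTE, *AP2C3* did not pass in MUTEPPP#3. Of the 8 phosphatases, *AP2C4* alone passed there, where it rose (0.54, adjusted p = 0.0210, called in 18 of 22), against 24.6% of all genes in either direction. In the MUTEv5 lines relative to MUTE, 0 of the 7 phosphatases other than *AP2C3* passed, against 5.04% of all genes in MUTEv5#2 and 1.04% in MUTEv5#5.

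The genes around *BIN2* were compared in the same way. Of 11 genes of brassinosteroid signalling and 9 other GSK3-like kinases, 0 passed in MUTEv5#2 or MUTEv5#5, against 5.04% and 1.04% of all genes. In MUTEPPP#3, 3 signalling genes and 2 kinases fell and 0 rose, against 13.9% of all genes that fell and 24.6% that passed in either direction. The kinases were *SK12*, with 107, 104 and 94.5 CPM in MUTEPPP#3 and 206, 144 and 144 CPM in MUTE (a change of -0.70, adjusted p = 0.00506), and *SK41* (-0.26, adjusted p = 0.0252, called in 14 of 22 alternatives). *SK12* was called in 21 of 22 alternatives, and with the clock index as a covariate it was -0.33 (adjusted p = 0.213). The signalling genes were the receptor *BRI1* (-0.44, adjusted p = 0.00774, called in 20 of 22), the transcription factor *BES1* (-0.60, adjusted p = 0.0121, called in 20, and not without MUTEPPP#3 replicate 2, at -0.55 with an adjusted p of 0.0526, or with the clock index, at -0.27 with an adjusted p of 0.354) and the phosphatase *BSU1* (-1.28, adjusted p = 0.0466, called in 6). *BSU1*, a homologue of *BSL1*, had 0.477, 0.361 and 0.373 CPM in MUTEPPP#3 and 1.77, 0.531 and 0.640 CPM in MUTE, and without MUTE replicate 1 its log2 fold change was -0.51 (adjusted p = 0.228). *BSL2*, another homologue, was lower in MUTEPPP#3 than in MUTEv5#5 (-0.33, adjusted p = 0.0266, called in 12 of 22). The median log2 fold change in MUTEPPP#3 was -0.25 over the 11 signalling genes and -0.18 over the 9 kinases, beside -0.0013 over all genes. The 9 members of the cascade, *MKK7* included, had a median of -0.22. Such medians were not particular to these lists. They were -0.24 over the 10 other MAPK kinase kinases, -0.26 over the 10 guard cell markers and -0.36 over 7 photosynthesis genes. Those of the 4 other MAPK kinases (0.14) and 18 other MAPKs (0.064) were positive.

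BES1 and BZR1 repress genes of brassinosteroid synthesis, and these were compared too. The output of the pathway was not tested. Of 6 genes of brassinosteroid synthesis, 0 passed in the MUTEv5 lines, against 5.04% of all genes in MUTEv5#2 and 1.04% in MUTEv5#5. In MUTEPPP#3, 1 of the 6 fell, against 13.9% of all genes that fell and 24.6% that passed in either direction. It was *ROT3*, a cytochrome P450 of this synthesis. It had 14.3, 16.9 and 17.03 CPM in MUTEPPP#3, against 21.6, 26.1 and 27.8 CPM in MUTE, without overlap. The log2 fold change was -0.64 (SE 0.128, adjusted p = 0.00606), called in 22 of 22 alternatives.

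Receptors above the cascade and substrates below it were compared in the same libraries. Of 5 substrates and scaffolds, *SPCH*, *SCRM*, *BASL* and *POLAR* rose in both MUTEv5 lines against MUTE, and *SCRM* and *SCRM2* fell in MUTEPPP#3. For these and for the receptors below, the share of all genes that passed in either direction was 5.04% in MUTEv5#2, 1.04% in MUTEv5#5 and 24.6% in MUTEPPP#3. In MUTEv5#2 *SCRM* (0.30) was called in 11 of 22 alternatives and *POLAR* (0.58) in 16. *BASL* scaffolds YDA and the MAPKs at the cell cortex and *POLAR* brings BIN2 there. In MUTEv5#5 *SPCH* had 19.3, 16.4 and 14.6 CPM, *SCRM* 106, 96.3 and 96.7 CPM, *BASL* 9.29, 8.33 and 7.97 CPM and *POLAR* 11.5, 11.1 and 10.8 CPM. In MUTE *SPCH* had 6.33, 4.39 and 5.52 CPM, *SCRM* 68.4, 61.7 and 66.4 CPM, *BASL* 3.52, 2.69 and 2.99 CPM and *POLAR* 5.14, 4.92 and 5.65 CPM. The log2 fold changes of *SPCH* (1.63), *BASL* (1.48) and *POLAR* (1.09) were called in 22 of 22 alternatives and that of *SCRM* (0.61, adjusted p = 0.00355) in 21. *SCRM2*, the second SPCH partner, had 61.9, 95.6 and 66.5 CPM in MUTEv5#5 and 58.6, 70.4 and 68.3 CPM in MUTE, and its log2 fold change of 0.18 did not pass (adjusted p = 0.691). In MUTEPPP#3 *SCRM2* had 31.0, 33.1 and 48.7 CPM and a log2 fold change of -0.81 (adjusted p = 0.0128, called in 21 of 22, and not without MUTEPPP#3 replicate 2, at -0.72 with an adjusted p of 0.0558), and *SCRM* one of -0.25 (adjusted p = 0.0326, called in 11). Of the 4 receptors *ER*, *ERL1*, *ERL2* and *TMM*, *TMM* rose in MUTEv5#2 and *TMM* and *ERL1* (called in 11 of 22 alternatives) in MUTEv5#5, while *ERL1* (-0.51, adjusted p = 0.0236, called in 16) and *ERL2* (-0.45, adjusted p = 0.00916, called in 19) fell in MUTEPPP#3. With the clock index as a covariate these were -0.30 (adjusted p = 0.394) and -0.36 (adjusted p = 0.161). In MUTEv5#5 the largest change among the 5 substrates was thus 1.63 on the log2 scale (*SPCH*). The largest in size among the 8 cascade members was -0.69 (*MPK3*, which did not pass). *SCRM* (0.61) and *SCRM2* (0.18) changed by less than that, so the contrast does not hold for every substrate.

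**Figure D5:**
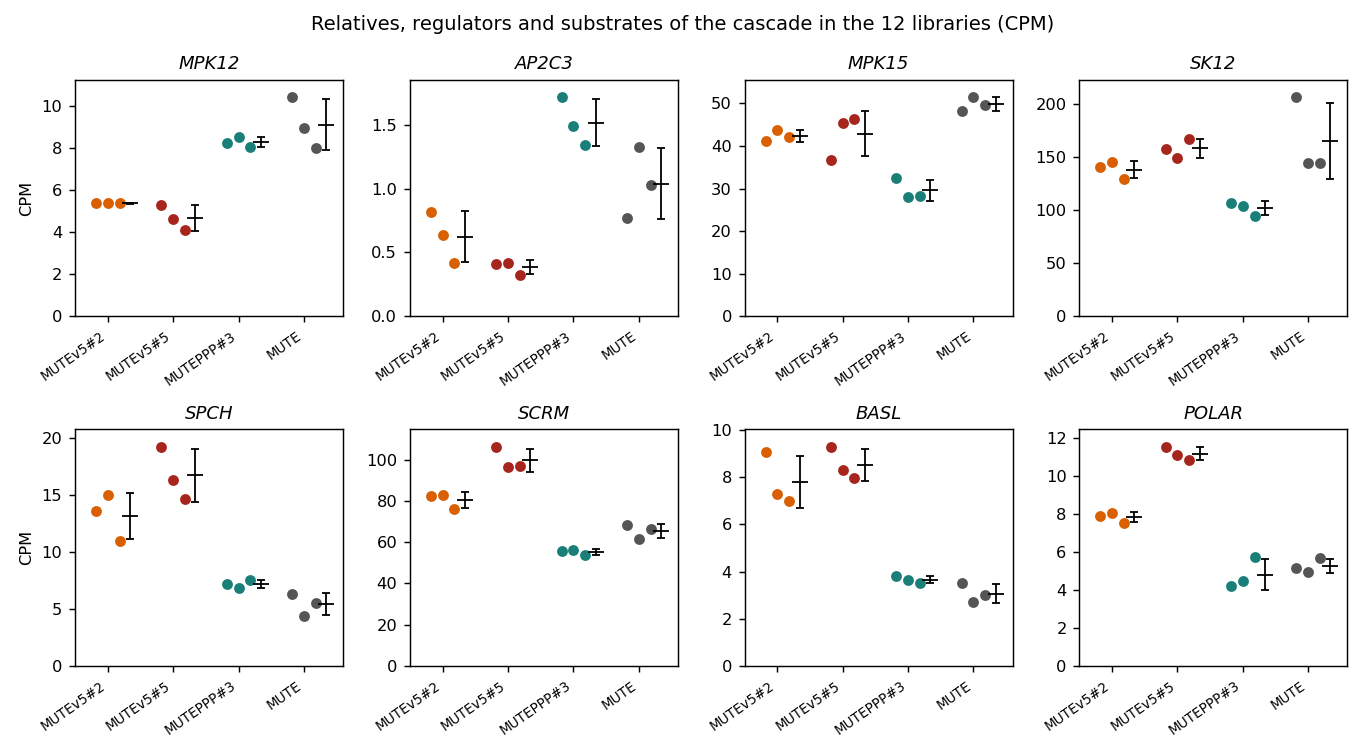
CPM in each library of *MPK12*, *AP2C3*, *MPK15*, *SK12* and the substrates or scaffolds *SPCH*, *SCRM*, *BASL* and *POLAR*, with 3 points per line and the mean ± SD, from left to right MUTEv5#2, MUTEv5#5, MUTEPPP#3 and MUTE. The 4 substrates and scaffolds are highest in the MUTEv5 lines, and *MPK12* is lowest there.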

How the data were processed

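RNA sequencing counts from 12 libraries, 3 per line, were analysed. The authors deposited a table of counts per gene. Per the submitters' processing notes, the tools included HISAT2 2.1.0, StringTie 2.1.3b, Bowtie2 2.3.4.1, Trimmomatic 0.38, FastQC and DESeq2, with the build TAIR10. The labels used here do not say which tool counted reads or with what strand setting. The lowest value in the table is 1 in every library, so that a gene without reads cannot be told from one with a single count. Entries that name no gene held at most 0.000596% of a library and were left out. Replicates of a line correlated at 0.972 to 0.991. They are labelled biological replicates, and p-values measure the spread between these pools of seedlings of 1 line each.

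Counts of 22636 genes that passed filterByExpr were fitted in 1 model of 4 group means with edgeR 4.0.16 (TMM scaling, quasi-likelihood test, Benjamini-Hochberg adjustment, threshold 0.05) in R 4.3.3. The 435 other genes were not tested. There were 6 pairwise comparisons and 1 overall test. DESeq2 1.42.0, limma-voom (limma 3.58.1), other scalings and filters, covariates, a replicate block and leaving out each library were the alternatives, 22 per comparison. Same-numbered libraries of MUTEv5#5 and MUTE deviated together (0.677, 0.553 and 0.487 for replicates 1 to 3), which pairs them by the data and not by the labels, and the block changed no member's call between them. The models were also run on simulated data, and no result given here rests on those runs. Correlations across libraries used permutation tests that exchanged the 12 libraries without regard to line or replicate number, with Benjamini-Hochberg adjustment over 28 pairs. All 9 members were named, with genes of the fixed pathway lists that passed the test. Members and lists were chosen with earlier results of these data known. Sequences came from RefSeq TAIR10.1.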

Additional observations from a re-analysis of the deposited data

How the results depend on the processing

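The number of members called in MUTEPPP#3 over MUTE, 1, was 2 with the clock index as a covariate (*BSL1*, *MPK3*), 2 with the replicate block (*BIN2*, *BSL1*), 0 with library totals only, 0 with only the compared groups, and 0 to 3 when single libraries were left out. For MUTEPPP#3 over MUTEv5#5, 1, it was 2 with DESeq2, 2 with limma-voom, 0 with the clock index, library totals, only the compared groups or the organelle share as a covariate, and 0 to 2 without single libraries. For MUTEPPP#3 over MUTEv5#2, 0, it was 1 with DESeq2 and 0 to 1 without single libraries. For MUTEv5#2 over MUTE, 0, it was 2 with the clock index and 0 without any single library, and for MUTEv5#5 over MUTE, 0, it was 1 with DESeq2, 1 with the clock index and 0 to 1 without single libraries. In the overall test, 2, it was 1 with library totals, 0 with the organelle share and 0 to 1 without single libraries, and only the compared groups was not run for this test. The cause of these changes was not tested. The replicate block, beside the 2 in MUTEPPP#3, moved no other count of members. In each comparison other than MUTEv5#5 over MUTE, at least 1 pair of same-numbered libraries correlated at under 0.1, but other pairs were higher. For MUTE and MUTEv5#2 the values were 0.431, 0.0409 and 0.635 for replicates 1 to 3. Across all lines, same-numbered pairs averaged 0.176 and other pairs -0.0912. Whether same-numbered libraries were handled together was not tested.

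Log2 fold changes of some members and of *MPK7* and *BSU1* reversed in sign. With library totals only they were *BIN2* (0.013) and *MKK9* (0.036) in MUTEv5#5 over MUTE, *BSL1* (0.099) in MUTEv5#2 over MUTE, and *MKK4* (0.097) and *MPK6* (0.11) in MUTEPPP#3 over MUTE. With the clock index they were *MKK4* (0.093), *MPK6* (0.0081), *MPK7* (-0.041) and *BSU1* (0.12) in MUTEPPP#3 over MUTE and *MKK5* (0.0075) in MUTEPPP#3 over MUTEv5#2, and with the organelle share *MKK9* (0.0057) in MUTEv5#5 over MUTE. When single libraries were left out, the values in MUTEv5#5 over MUTE ran from -0.15 to 0.044 for *BIN2*, -0.29 to 0.0062 for *BSL1* and -0.57 to 0.30 for *MKK9*. In MUTEv5#2 over MUTE they ran from -0.19 to 0.073 for *BSL1* and from -0.0065 to 0.10 for *YDA*, and in MUTEPPP#3 over MUTE from -0.16 to 0.016 for *MKK4* and -0.057 to 0.17 for *MKK5*.

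The number of all genes called ranged over the alternatives from 2803 to 6921 in MUTEPPP#3, 78 to 2661 in MUTEv5#2 and 42 to 1156 in MUTEv5#5 over MUTE, from 40 to 2127 in MUTEPPP#3 over MUTEv5#2, 737 to 5120 in MUTEPPP#3 over MUTEv5#5 and 3 to 297 in MUTEv5#5 over MUTEv5#2, and from 1486 to 7395 in the overall test. Depth limited *MKK7* among the members, at 2 to 20 counts per library.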
